A study of Mus musculus with 8 samples.

Results

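A set of 10 long non-coding RNA (lncRNA) genes was followed here: 2 nuclear lncRNAs known for their abundance in many tissues, Malat1 and Neat1, and 8 genes that host small nucleolar RNAs (snoRNAs), Gas5, Snhg1, Snhg3, Snhg6, Snhg8, Snhg12, Dancr and Epb4.1l4aos. They were chosen by symbol from a list, and all 10 were found among the 24421 genes of the count files. R1 mouse embryonic stem cells (ESCs), a pluripotent line, were taken undifferentiated (Undiff) or differentiated (Day4). Per the study's methods, Day4 cells had been grown for 4 days as embryoid bodies without leukaemia inhibitory factor (LIF), which keeps ESCs pluripotent, and then for 4 days with 2 µM retinoic acid (RA; the treatment protocol of the labels has mM as the unit), while Undiff cells stayed in ESC medium with LIF. The states thus differ in LIF, in growth as embryoid bodies, in time and in RA, and the parts of these cannot be told apart. The labels name embryoid bodies as the material of every library, Undiff included. Poly(A) RNA was read by nanopore (Oxford Nanopore Technologies, ONT) with the Direct RNA kit, which reads the RNA strand itself from an input of 500 ng, and with the cDNA kit, which copies RNA to cDNA and amplifies it by PCR from an input of 50 ng. Each of the 4 groups held 2 replicates, grown and treated separately, which gave 8 libraries. By the study's methods RNA of the same duplicate cultures went into both kits, so the kits do not give independent cultures. That a replicate number marks the same culture in both kits is not stated.

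Malat1 RNA is retained in nuclear speckles, where splicing factors gather, and Neat1 RNA is the scaffold of nuclear paraspeckles. SnoRNAs guide the chemical modification or the cleavage of ribosomal RNA, and in mammals most are cut out of the introns of a host gene. The spliced host RNA of Gas5 or of an Snhg (snoRNA host gene) is exported and, in many cases, decays rapidly in the cytoplasm. Several hosts begin with a run of pyrimidines, the 5′ terminal oligopyrimidine feature that they share with genes for ribosomal proteins. A poly(A)-selected long-read library counts the spliced or unspliced host RNA and not the mature snoRNA.

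To show where transcription of these hosts begins, 30 bases around the annotated start are given for the 7 genes with a promoter entry in RefSeq (GRCm38.p6), which had 8 entries because Gas5 had 2 start sites. Each sequence runs 5′ to 3′ on the strand of the gene, from 10 bases before the start to 20 bases from it. Capitals mark the longest run of at least 6 C or T bases on that strand that covers any position from 5 before to 10 after the start, and a sequence without capitals holds no such run there.
Gas5, chr1:161035156-161035185, plus strand: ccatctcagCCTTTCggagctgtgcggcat
Gas5, chr1:161034591-161034620, plus strand: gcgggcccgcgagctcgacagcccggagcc
Snhg1, chr19:8723477-8723506, plus strand: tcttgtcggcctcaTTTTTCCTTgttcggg
Snhg8, chr3:123508317-123508346, minus strand: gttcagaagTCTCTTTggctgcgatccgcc
Snhg12, chr4:132308668-132308697, plus strand: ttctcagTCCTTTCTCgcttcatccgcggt
Snhg3, chr4:132353667-132353696, minus strand: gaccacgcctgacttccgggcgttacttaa
Dancr, chr5:74093050-74093079, plus strand: ctcggggggggggggcagctccgcccctct
Malat1, chr19:5802653-5802682, minus strand: ggctctgcgtcaggcattcaggcagcgaga
Such a run was found in 4 of the 8 entries, those of Snhg1, Snhg8, Snhg12 and the downstream start of Gas5, and in 24.4% of all 32851 promoters of the table. Snhg3, called lower in Day4 by both kits, had none in this window. A match is a description of the letters and not of use. Neat1, Snhg6 and Epb4.1l4aos are named only.

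Reads on genes numbered 283461 to 907489 in the Direct RNA libraries and 948657 to 2088592 in the cDNA libraries, and replicate 2 was the deeper library in all 4 groups. Levels are given as CPM, reads scaled to 1e6 reads on genes. A floor of 3 reads came to 1.44 to 10.6 CPM by library, and a level below it rests on fewer than 3 reads. Reads of the 10 genes together took between 0.0726% (95% Wilson interval 0.0642 to 0.0821) and 0.101% of a Direct RNA library, and between 0.181% and 0.321% (0.312 to 0.331) of a cDNA library. Within each state of cDNA the share was higher in replicate 1, and within each state of Direct RNA it was higher in replicate 2. Reads that htseq-count set aside as ambiguous made 1.84% to 1.99% in Direct RNA and 6.08% to 6.70% in cDNA. The labels of state were checked with marker genes. The summed level of 8 pluripotency markers was 10744.5 to 23567 CPM in Undiff and 82.7 to 918 CPM in Day4, where Fgf4 was at 0 in 3 of 4 libraries and Esrrb in 1. That of 8 RA response markers was 8.61 to 78.0 CPM in Undiff, where Hoxb2 and Hoxb4 were at 0 in all 4 libraries, and 953 to 1283 CPM in Day4. Markers of other cell types moved with state too. The summed level of 7 endoderm markers was 0.479 to 8.61 CPM in Undiff, with Gata6, Afp and Ttr at 0 in every library, and 273 to 988 CPM in Day4. For 7 fibroblast markers it was 4.31 to 14.3 CPM in Undiff, with Col1a2, Col3a1, Dcn and Lum at 0, and 227 to 2865 CPM in Day4. Most of the Day4 sum came from the collagen genes Col3a1, Col1a2 and Col1a1 (1852, 533 and 448 CPM in Direct RNA replicate 1). Thy1 went the other way on few reads, from a mean of 7.61 to 2.03 CPM in Direct RNA and from 5.60 to 0.481 CPM in cDNA. The ranges were 53.8 to 152 and 40.2 to 216 CPM for 5 endothelial markers and 75.9 to 176 and 21.2 to 38.7 CPM for 7 neural markers. By the DEG rule described next, 8 of 8 pluripotency markers fell in both kits, RA response markers rose in 7 of 7 tested in Direct RNA and 8 of 8 in cDNA, endoderm markers in 5 of 5 and 3 of 5, fibroblast markers in 4 of 4 and 4 of 5, and endothelial markers in 1 of 3 and 0 of 3, where 1 fell in cDNA. With library totals as the scale in DESeq2, endothelial markers rose in 2 of 3 and 1 of 4, and 0 fell. Of the neural markers, 1 of 1 tested fell in Direct RNA and 1 of 2 in cDNA. The part of these markers in the changes of the 10 genes was not tested, and in such bulk samples fewer cells of a type and less RNA per cell cannot be told apart.

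**Figure D1:**
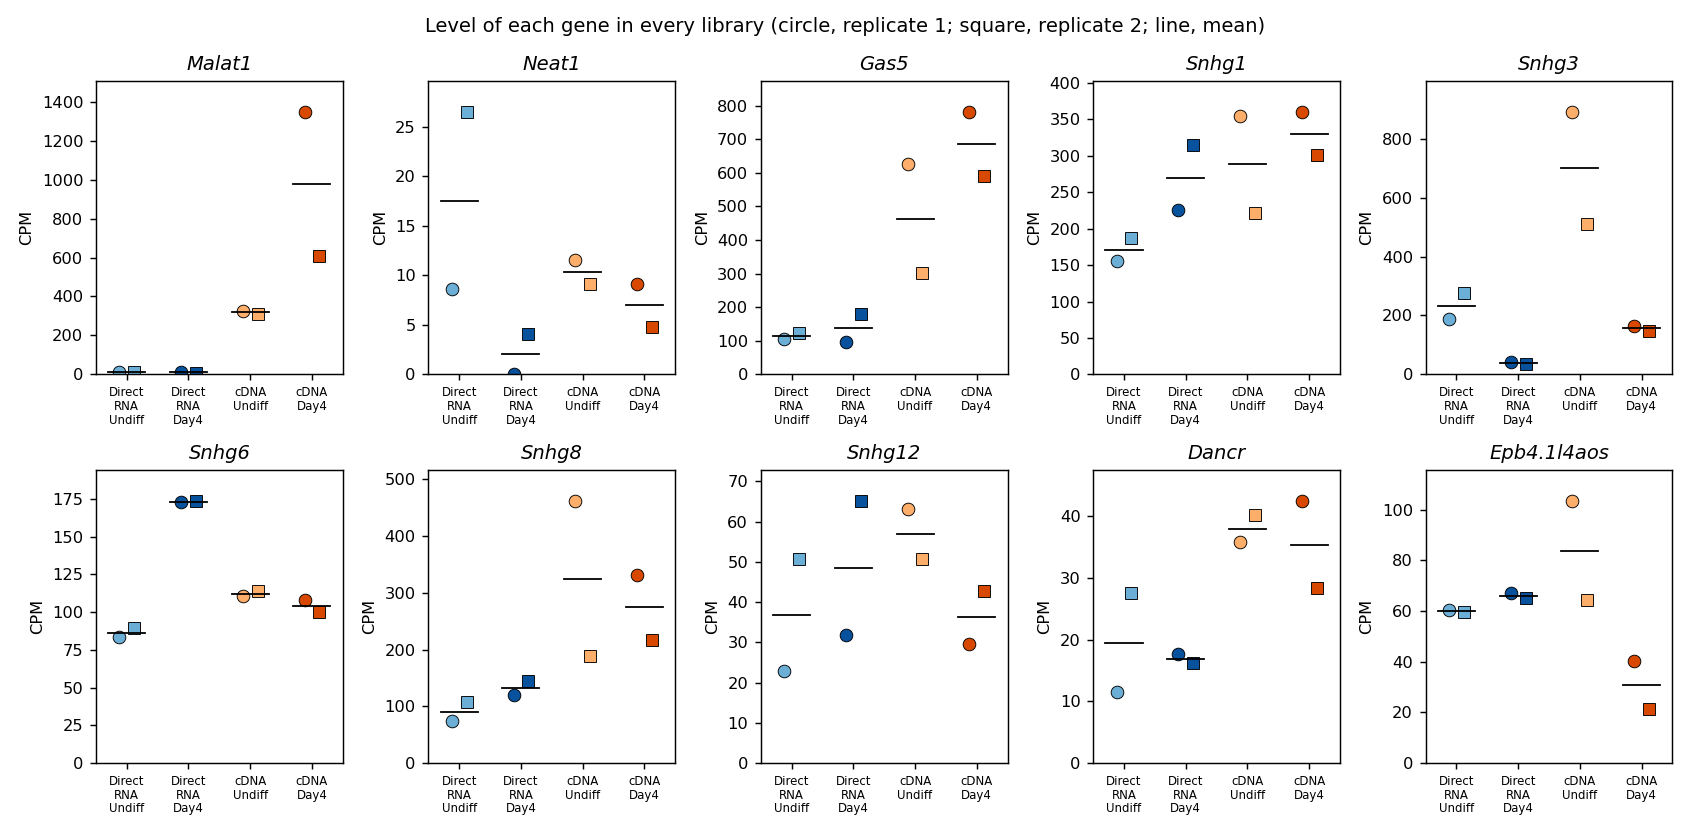
Level of each gene in CPM (vertical axis, linear, a separate scale for each gene) in the 4 groups of kit and state; circles are replicate 1, squares replicate 2, lines the mean of n = 2. Snhg3 was lower in both Day4 libraries than in both Undiff libraries of either kit, and Malat1 lay between 8.13 and 14.3 CPM in Direct RNA and between 310 and 1345 CPM in cDNA.

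The first question was which of these genes differed between Undiff and Day4 in each kit. In Direct RNA, 1 of the 10 genes was a differentially expressed gene (DEG) and was lower in Day4 (Snhg3). In cDNA, 1 gene was a higher DEG (Malat1) and 2 were lower DEGs (Snhg3 and Epb4.1l4aos). To be a DEG, a gene needed an adjusted p-value in DESeq2 no higher than 0.05, a shift of 1 or more on the log2 scale in either direction, and 5 or more normalized counts on average. Over all genes tested, 9.54% were higher and 7.67% lower DEGs in Direct RNA (17.2% in either direction), and 8.69% were higher and 9.24% lower DEGs in cDNA (17.9% in either direction). With 10 genes, these counts are near the background. No gene of the 10 was a higher DEG in Direct RNA. There, 1 gene (Snhg6) was higher with an unadjusted DESeq2 p-value below 0.05, and edgeR also called none higher. The median log2 fold change of the 10 genes was 0.10 in Direct RNA and -0.49 in cDNA, beside 0.03 and 0.00 over all genes tested. Where the libraries of both states are given below as without overlap, this is a description only. With 2 libraries against 2 it arises often without a difference, and its share over all genes between states was not counted.

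Snhg3, the host of Snora73a and Snora73b, the U17 snoRNAs of early ribosomal RNA cleavage, was the gene of the 10 that was a DEG in both kits. The gene lies at chr4:132348014-132353686 on the minus strand (GENCODE vM21, GRCm38), and its longest transcript has 2 exons and 581 bases. In Direct RNA its reads gave 189 and 275 CPM in Undiff and 42.3 and 35.3 CPM in Day4. In cDNA they gave 890 and 512 CPM in Undiff and 165 and 147 CPM in Day4. In each kit both Undiff libraries were above both Day4 libraries, without overlap. The gap between states was wider than the distance between replicates in Direct RNA, and in cDNA it was narrower than the distance between the Undiff replicates. On the log2 scale the DESeq2 difference was -2.66 (SE 0.47) in Direct RNA, with an adjusted p-value of 1.27e-06, and -2.45 (SE 0.43) in cDNA, with an adjusted p-value of 6.56e-07. Without Direct RNA Undiff replicate 2, the deepest Direct RNA library with 250 of the 316 Direct RNA Undiff reads on Snhg3, the log2 fold change there was -2.24 and the DESeq2 adjusted p-value 0.114. In cDNA the log2 fold change lay between -2.84 and -1.98 without each library in turn, and it passed the test each time. Such fits set 1 library against 2 within a kit, and the lone library, which has no spread of its own, is assumed to vary like the other group.

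Snhg3 shares exon sequence with Rcc1 on the same strand, the gene of a chromatin-bound nucleotide exchange factor for Ran, so reads in the shared part cannot be assigned by strand. Rcc1 had 52 and 175 reads in Direct RNA Undiff, 13 and 46 in Direct RNA Day4, 74 and 334 in cDNA Undiff and 85 and 128 in cDNA Day4. Rcc1 itself was a DEG in Direct RNA, at -1.70 on the log2 scale (SE 0.48, DESeq2 adjusted p = 0.00586). In cDNA it was not, at -1.19 (SE 0.48, adjusted p = 0.0881). Whether reads passed between both genes was not tested. Snhg3 also overlaps exons of Gm17300 on the opposite strand, a gene without a row in the count files. Gene counting used the strand in Direct RNA. For cDNA the methods state counting without strand for exons and do not name the setting for genes.

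The share of Snhg3 among the reads of the 8 snoRNA hosts does not depend on how libraries are scaled. It was 26.9% (95% Wilson interval 21.8 to 32.8, of 245 reads) and 29.98% (27.0 to 33.2, of 834) in Direct RNA Undiff, and 5.48% (3.16 to 9.33, of 219) and 3.55% (2.43 to 5.15, of 733) in Direct RNA Day4. In cDNA it was 33.6% and 34.3% in Undiff and 8.91% and 10.2% in Day4. The intervals of the Undiff and Day4 libraries did not overlap in either kit. They cover the counting of reads only and not the spread between replicates. In cDNA they may be too narrow even for that, since PCR copies of a molecule are not independent. Snhg3 was thus the host with the most reads in all 4 Undiff libraries. In Day4 the host with the most reads was Snhg1 in Direct RNA, with 29.2% and 31.7%, and Gas5 in cDNA, with 42.0% and 40.7%.

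**Figure D2:**
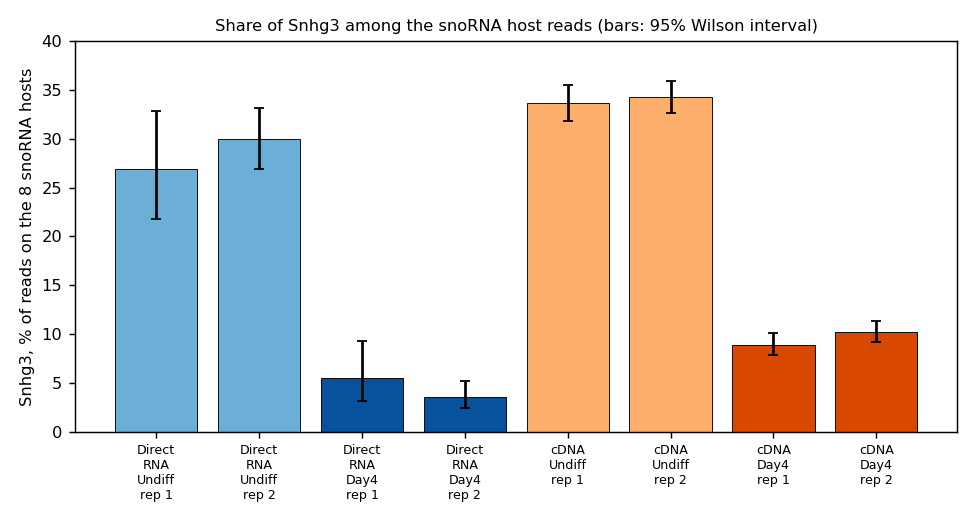
Share of Snhg3 in percent of the reads on the 8 snoRNA hosts (vertical axis) in each of the 8 libraries (horizontal axis); bars are shares and error bars 95% Wilson intervals of counting. The 4 Undiff libraries stood at 26.9% to 34.3% and the 4 Day4 libraries at 3.55% to 10.2%.

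Malat1, the lncRNA of nuclear speckles, lies at chr19:5795690-5802672 on the minus strand, with a longest transcript of 1 exon and 6983 bases. It had 5 and 11 reads in Direct RNA Undiff and 4 and 6 in Direct RNA Day4, or 14.3, 12.1, 14.1 and 8.13 CPM. In cDNA it had 311 and 648 reads in Undiff and 1773 and 1258 in Day4, or 328, 310, 1345 and 606 CPM. The Day4 libraries were above the Undiff libraries in cDNA and overlapped with them in Direct RNA. The log2 fold change was 1.30 (SE 0.46, DESeq2 adjusted p = 0.0455) in cDNA and -0.33 (SE 1.05, adjusted p = 0.930) in Direct RNA. The call in cDNA stood just inside the threshold, and it was lost in 3 of the 4 fits of 1 library against 2, which also have a replicate less. The DESeq2 adjusted p-value was 0.214 without Undiff replicate 1 and 0.395 without Undiff replicate 2, with log2 fold changes of 1.32 and 1.16, close to that of all libraries. Without Day4 replicate 1 the log2 fold change itself was smaller, at 0.53, and the adjusted p-value was 0.973. It was 0.00793 without Day4 replicate 2 and 0.00386 with edgeR. In Direct RNA the pooled 10 Day4 reads against 16 Undiff reads gave a ratio of levels of 0.769 with an exact 95% interval of 0.312 to 1.80, the upper bound of which lies below the pooled ratio of 2.83 (2.63 to 3.04) in cDNA. These intervals cover counting error only and not the spread between replicates.

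Neat1, the scaffold of paraspeckles, lies next to Malat1 at chr19:5824708-5845478 on the same strand, with a longest transcript of 20771 bases. It was the rarest of the 10 genes in total reads. In Direct RNA it had 3 and 24 reads in Undiff and 0 and 3 in Day4, and in cDNA 11 and 19 in Undiff and 12 and 10 in Day4. In CPM these were 8.61 and 26.4, 0 and 4.07, 11.6 and 9.10, and 9.10 and 4.81. Pooled over replicates, 3 Day4 reads against 27 Undiff reads in Direct RNA gave a ratio of levels of 0.137 (exact 95% interval 0.0265 to 0.444, for counting error only). Undiff replicate 2 held 24 of the 27 reads, and the DESeq2 log2 fold change was -0.94 without it and -1.49 without Day4 replicate 1. Where no read was found, 3 reads would be 10.6 CPM, above the level of Undiff replicate 1. The groups did not overlap in Direct RNA, but the log2 fold change of -2.28 (SE 1.22) did not pass the test in DESeq2 (adjusted p = 0.272). In edgeR it was -2.81 and did pass (adjusted p = 0.00625). That tool called 33.7% of all genes tested in Direct RNA, and 32.6% of those in cDNA. In cDNA the log2 fold change was -0.80 (SE 0.88, DESeq2 adjusted p = 0.762).

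Epb4.1l4aos, named Epb41l4aos in GENCODE, is an antisense lncRNA that hosts 1 annotated snoRNA and has a longest transcript of 3 exons and 430 bases. The gene lies on chromosome 18 between 33794892 and 33795986, plus strand. Its level in Direct RNA was 60.3 and 59.5 CPM in Undiff and 67.0 and 65.1 CPM in Day4. In cDNA it was 103 and 64.2 CPM in Undiff and 40.2 and 21.2 CPM in Day4. Undiff libraries were thus above Day4 libraries in cDNA and slightly below them in Direct RNA, without overlap in either. With 2 libraries against 2, the small separation in Direct RNA does not by itself show a change. The log2 fold change was -1.70 (SE 0.55, DESeq2 adjusted p = 0.0218) in cDNA and 0.03 (SE 0.56, adjusted p = 0.985) in Direct RNA. In DESeq2 fits of 1 library against 2, where the other group gives the spread, the call in cDNA was lost without Undiff replicate 1 (-1.30, adjusted p = 0.407) or Day4 replicate 2 (-1.19, 0.630). It was lost without Undiff replicate 2 too (adjusted p = 0.0781), although the log2 fold change of -2.04 was larger in size than that of all libraries. With library totals as the scale in DESeq2 it was -1.41 and not called (adjusted p = 0.0629).

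The other 6 hosts passed the test between states in neither kit. Gas5, which overlaps 10 annotated snoRNA loci at chr1:161034422-161038539 (plus strand), stood at 106 and 122 CPM in Direct RNA Undiff and at 95.3 and 179 CPM in Day4. In cDNA it stood at 626 and 302 CPM in Undiff and at 780 and 589 CPM in Day4. In both kits the groups overlapped, and the log2 fold changes were 0.18 (SE 0.47, DESeq2 adjusted p = 0.930) and 0.23 (SE 0.46, adjusted p = 0.921). Snhg1, with 8 snoRNA loci at chr19:8723475-8726443 (plus strand), stood at 155 and 187 CPM in Direct RNA Undiff and at 226 and 315 CPM in Day4. In cDNA it stood at 354 and 222 CPM and at 360 and 301 CPM. Its groups did not overlap in Direct RNA and did in cDNA, and the log2 fold changes were 0.55 (SE 0.38, DESeq2 adjusted p = 0.485) and -0.13 (SE 0.43, adjusted p = 0.951).

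Snhg6, the host of Snord87 at chr1:9941959-9944118 (minus strand), had replicates that lay close together. Its level was 83.2 and 89.3 CPM in Direct RNA Undiff and 173 and 174 CPM in Day4, and 111 and 114 CPM in cDNA Undiff and 108 and 100.1 CPM in Day4. The Day4 libraries were above in Direct RNA and below in cDNA, without overlap, but neither difference passed the test. The log2 fold changes were 0.87 (SE 0.43, DESeq2 adjusted p = 0.217) and -0.42 (SE 0.43, adjusted p = 0.730). Snhg8, the host of Snora24 at chr3:123507552-123508404 (minus strand), stood at 74.6 and 107 CPM in Direct RNA Undiff and at 120 and 145 CPM in Day4. In cDNA it stood at 462 and 189 CPM and at 332 and 218 CPM, where the Undiff pair enclosed the Day4 pair. Its log2 fold changes were 0.41 (SE 0.47, DESeq2 adjusted p = 0.779) and -0.55 (SE 0.50, adjusted p = 0.662).

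Snhg12, the host of Snora16a, Snora44, Snora61 and Snord99 at chr4:132308623-132311024 (plus strand), and Dancr, the host of Snora26 at chr5:74093060-74095406 (plus strand), had fewer reads. Snhg12 stood at 23.0 and 50.7 CPM in Direct RNA Undiff and at 31.8 and 65.1 CPM in Day4, with replicate 2 above replicate 1 in both states. In cDNA it stood at 63.2 and 50.8 CPM in Undiff and at 29.6 and 42.8 CPM in Day4, without overlap. Its log2 fold changes were 0.26 (SE 0.70, DESeq2 adjusted p = 0.930) and -0.96 (SE 0.51, adjusted p = 0.273). Dancr stood at 11.5 and 27.5 CPM in Direct RNA Undiff and at 17.6 and 16.3 CPM in Day4, and at 35.8 and 40.2 CPM in cDNA Undiff and at 42.5 and 28.4 CPM in Day4. Its groups overlapped in both kits, with log2 fold changes of -0.34 (SE 0.93, DESeq2 adjusted p = 0.930) and -0.40 (SE 0.56, adjusted p = 0.858).

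**Figure D3:**
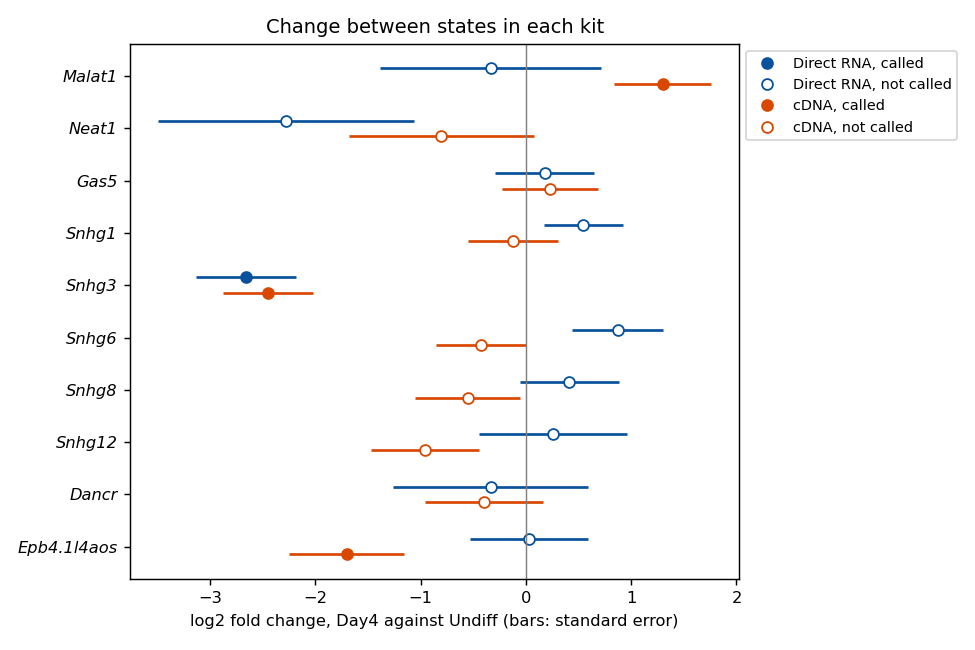
DESeq2 log2 fold change of Day4 against Undiff (horizontal axis) for each gene in Direct RNA (blue) and cDNA (orange), with bars of 1 standard error from fits to n = 2 against 2; filled points are DEGs. Snhg3 lay at -2.66 and -2.45, while Malat1 (1.30) and Epb4.1l4aos (-1.70) were DEGs in cDNA.

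Whether a change between states differed between kits was tested as an interaction over all 8 libraries. DESeq2 called 0 of the 10 genes (all adjusted p = 1.00), and edgeR called 0 as well. Over all genes tested, DESeq2 called 2 (0.0116%) and edgeR 14. An unadjusted DESeq2 p-value below 0.05 was found for 3 of the 10 genes and for 161 of the 17267 tested. The change was larger in cDNA for Malat1 by 1.78 on the log2 scale (SE 0.87), and lower in cDNA for Snhg6 (-1.34, SE 0.57) and for Epb4.1l4aos (-1.82, SE 0.80). The difference for Snhg3 was 0.20 with SE 0.64. No gene of the 10 was thus shown to change differently in both kits, Malat1 and Epb4.1l4aos included, although each was a DEG in cDNA and not in Direct RNA.

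The next question was how the kits differed with the state held. Of the 10 genes, 6 were higher in cDNA and 0 lower by the DEG rule in DESeq2. Over all genes tested, 24.7% were higher and 26.6% lower in cDNA (51.3% in either direction), and edgeR called 56.1%. No gene of the 10 was lower with an unadjusted DESeq2 p-value below 0.05, nor was any called lower by edgeR. The median log2 difference of the 10 genes was 1.46, against -0.02 over all genes tested. Malat1 was higher by 6.08 (SE 0.46, DESeq2 adjusted p = 2.92e-37), Gas5 by 2.88 (SE 0.34, 3.46e-16), Snhg3 by 2.52 (SE 0.30, 2.41e-15) and Snhg8 by 2.17 (SE 0.39, 1.92e-07). Dancr was higher by 1.66 (SE 0.39, 0.000141) and Snhg1 by 1.26 (SE 0.29, 0.000102). The differences of Snhg12 (0.76, SE 0.40), Neat1 (0.67, SE 0.64), Snhg6 (0.55, SE 0.30) and Epb4.1l4aos (0.48, SE 0.43) did not pass.

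How libraries are scaled moved these values. The DESeq2 size factors put the median of all genes near 0, and CPM does not. When library totals were used as the scale in DESeq2, the median over all genes was -0.77, and of all genes called 20.5% were higher in cDNA (1132 higher and 4394 lower) rather than 48.1% (2572 and 2772). Under library totals Malat1 (5.38), Gas5 (2.12), Snhg3 (1.74) and Snhg8 (1.40) were still called higher. Dancr (0.93) and Snhg1 (0.50) were no longer called, and Neat1 (-0.04), Snhg6 (-0.20) and Epb4.1l4aos (-0.29) changed sign. In CPM without a fit, every cDNA library was above every Direct RNA library for 4 of the 10 genes, Malat1, Gas5, Snhg8 and Dancr, and for 9.75% of all 10426 genes tested. The reverse held for 0 of the 10 genes and for 30.1% of all. The Snhg3 groups overlapped because cDNA Day4 lay below Direct RNA Undiff. Between states the same scaling moved the median of all genes from 0.03 to 0.13 in Direct RNA, with 61.9% rather than 55.4% of DEGs higher, and from 0.00 to 0.33 in cDNA, with 65.8% rather than 48.5% higher. Snhg3 stayed a lower DEG in both kits under library totals.

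**Figure D4:**
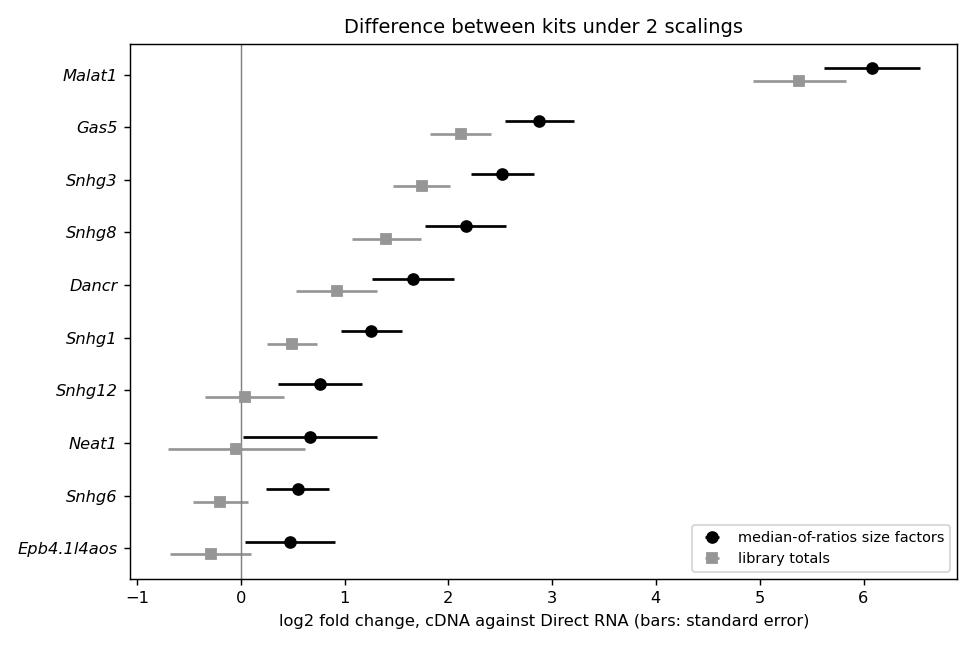
DESeq2 log2 fold change of cDNA against Direct RNA (horizontal axis) for each gene, with state as a covariate over 8 libraries; black circles use median-of-ratios size factors, grey squares library totals, and bars are 1 standard error. Malat1 lay at 6.08 and 5.38, while Neat1, Snhg6 and Epb4.1l4aos lay on either side of 0.

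Malat1 stood apart in this comparison. Its mean level over both states was 12.2 ± 2.88 CPM (SD, n = 4) in Direct RNA and 647 ± 485 CPM in cDNA, so the SD includes the distance between states. The ratio of these means was 53.1, with 24.1 in Undiff and 87.7 in Day4. The cDNA Day4 replicates stood at 1345 and 606 CPM, so the Day4 ratio and that of both states lean on replicate 1. Its log2 difference ranked 5 among the 10397 genes tested that had a transcript in GENCODE. The difference between kits followed transcript length over those genes, with a median log2 difference of 1.85 up to 500 bases, 1.62 from 500 to 1000, 0.87 from 1000 to 2000, -0.07 from 2000 to 4000, -0.63 from 4000 to 6000 and -0.72 from 6000 to 8000 bases. The genes are not independent replicates, and these medians are a description. Malat1, at 6983 bases, belongs to the last of these classes, where 875 genes had a 5th to 95th percentile of -2.61 to 2.57. Gas5 lay above the 95th percentile of its class (2.18) too. Snhg1, Snhg3, Snhg8 and Dancr lay above the median and within the range of theirs, and Snhg6, Snhg12 and Epb4.1l4aos lay below the median of theirs. Neat1, the longest of the 10, lay above the median of -0.44 for genes over 8000 bases. These placements rest on the longest annotated transcript. Gas5 has 25 annotated transcripts, Snhg1 18, and Dancr and Neat1 4 each, and which of them the reads came from was not examined. A form of Gas5, Snhg1 or Dancr below 2000 bases would belong to a class with a higher median.

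**Figure D5:**
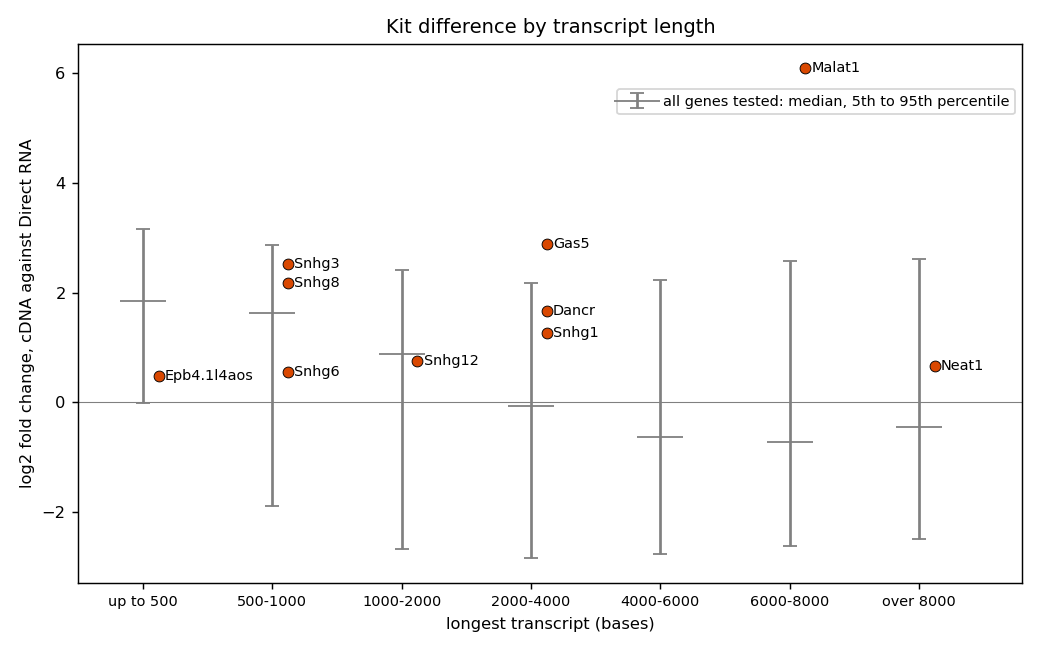
DESeq2 log2 fold change of cDNA against Direct RNA (vertical axis) by class of longest transcript in bases (horizontal axis); grey lines are the median and the 5th to 95th percentile of all genes tested in a class, and points are the 10 genes. Malat1 (6.08) and Gas5 (2.88) lay above the 95th percentile of their classes (2.57 and 2.18).

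Runs of A within the transcripts were looked at after these values were seen. The longest run was 12 in Malat1, 12 in Snhg12, 7 in Neat1, and 4 or 5 in the other genes. A run of 12 or more was present in 11.5% of the genes tested. The run of Malat1 is shown because the gene differed most between kits, with capitals marking the run.
Malat1, chr19:5795979-5796008 (GRCm38), minus strand, bases 6665 to 6694 of 6983: cctagctttAAAAAAAAAAAAgcaaaagac
The run ends 298 bases before the annotated end of the transcript. Snhg12, with a run of the same length, differed between kits by 0.76 on the log2 scale and did not pass the test. The part of such runs in the difference between kits was not tested.

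The hosts hold 29 annotated snoRNA loci under 27 symbols, of which 18 had no row in the files, so that reads on those cannot be given. The other 9 symbols held 10 reads over all 8 libraries, 9 of them on snoRNAs within Snhg12. Mcmdc2, which overlaps exons of Snhg6 on the opposite strand, had at most 1 read in a library, and Zbtb37, whose span but not its exons crosses Gas5, had at most 5. Reads that lie in 2 genes are set aside where strand is not used, so these counts do not measure what the genes share. Malat1 and Dancr overlap Gm37376 and Gm43416 on the opposite strand, which have no row in the files.

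Levels of different genes were compared per length of the longest transcript, in CPM per kb. A long read can cover a whole transcript, so the number of reads need not grow with length. The divisors, from 0.43 kb for Epb4.1l4aos to 20.771 kb for Neat1, thus weigh on the order. In Direct RNA Undiff the order was Snhg3 (mean 400.1), Epb4.1l4aos (139), Snhg8 (117), Snhg6 (106), Snhg1 (62.7), Gas5 (44.7), Snhg12 (23.9), Dancr (8.31), Malat1 (1.90) and Neat1 (0.844). Only Snhg8 and Snhg6 among neighbours in that order had overlapping replicates. In Direct RNA Day4 Snhg6 led (212), followed by Snhg8 (171) and Epb4.1l4aos (154), of which the last 2 overlapped. Snhg3 (66.8) was then 5th and overlapped with Gas5 (53.6), which overlapped with Snhg12 (31.5). In cDNA Undiff Snhg3 (1206) led Snhg8 (419) without overlap, and Malat1 (45.7) was 7th. In cDNA Day4 Snhg8 (354), Snhg3 (269) and Gas5 (268) led and overlapped as neighbours, and Malat1 (140) was 4th and overlapped with Snhg6 (127). Neat1 was last in all 4 groups, at most 0.844. The order holds for the longest annotated transcript only, and that of the means turns without division by length. In mean CPM, Malat1 (13.2) was below Neat1 (17.5) in Direct RNA Undiff, but in replicate 1 it was above (14.3 against 8.61). Malat1 (975) had the highest mean in cDNA Day4, where its replicates (1345 and 606) overlapped those of Gas5 (780 and 589).

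Other host genes were read from lists in the same fits. Over all genes tested, 9.54% were higher and 7.67% lower DEGs between states in Direct RNA, and 8.69% and 9.24% in cDNA. Of 12 other snoRNA host lncRNAs, 11 had a row. In Direct RNA 2 of 7 tested were higher DEGs and 0 lower, and in cDNA 1 of 10 was higher and 0 lower, with median log2 fold changes of -0.01 and -0.44. Snhg18 was the one called in both kits. It stood at 1.65 ± 2.34 CPM (SD, n = 2) in Undiff and 55.7 ± 5.98 CPM in Day4 in Direct RNA, and at 6.95 ± 5.08 and 58.2 ± 0.759 CPM in cDNA. In Direct RNA 3 Undiff reads gave a pooled ratio of Day4 to Undiff levels of 22.6 (exact 95% interval 7.32 to 113, for counting error only), with a DESeq2 adjusted p-value of 0.00120. In cDNA its log2 fold change was 2.69 (SE 0.67, DESeq2 adjusted p = 0.00131). Without 1 library the call of Snhg18 was lost in all 4 fits of Direct RNA (3.23 to 4.22) and in 3 of 4 in cDNA (1.91 without Undiff replicate 2, and 2.42 and 2.61 without either Day4 library). Between kits 8 of 10 tested were higher in cDNA and 0 lower, with a median of 1.91. Of 20 protein-coding hosts, 4 of 18 tested were lower DEGs in Direct RNA and 5 of 19 in cDNA, beside 7.67% and 9.24% of all genes tested. In either kit 0 were higher, and the medians were -0.32 and -0.89. Ncl, which encodes nucleolin, fell by 1.72 (SE 0.25) and 1.43 (SE 0.40) on the log2 scale, and Eif4a1, which encodes the translation initiation helicase eIF4A, fell by 1.36 (SE 0.38) and 2.90 (SE 0.54). Eif4a1 stood at 321 and 242 CPM in Direct RNA Undiff and 116 and 114 CPM in Day4, and at 1640 and 429 CPM in cDNA Undiff and 132 and 208 CPM in Day4. Its Undiff replicates in cDNA lay far apart, and without the first of them the log2 fold change was -1.64 (DESeq2 adjusted p = 0.0273). The call of Eif4a1 was lost in Direct RNA without any 1 library (-1.51 to -1.26, DESeq2 adjusted p 0.101 to 0.324) and with the replicate block (adjusted p = 0.0525), and in cDNA without either Day4 library (adjusted p 0.378 and 0.567). For Ncl it held in Direct RNA without each library (-1.85 to -1.54), and in cDNA it was lost without Undiff replicate 2 (-0.95) or either Day4 library (-1.47 and -1.27). Between kits 7 of 19 protein-coding hosts were higher in cDNA and 0 lower, with a median of 0.65, beside 24.7% and 26.6% of all genes. With library totals as the scale in DESeq2, 3 were higher and 2 lower, with a median of -0.04, so this list has no direction between kits that holds under both scalings. The lncRNA hosts were then higher in 6 of 10 and lower in 0 (median 1.18).

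Of 29 other lncRNAs, 28 had a row. In Direct RNA 2 of 10 tested were higher DEGs and 1 lower, beside 9.54% and 7.67% of all genes tested. In cDNA 5 of 17 were higher and 1 lower, beside 8.69% and 9.24%. Hotairm1, which lies in the Hoxa cluster, stood at 0.551 ± 0.779 CPM in Undiff and 275 ± 175 CPM in Day4 in Direct RNA, and at 3.26 ± 0.134 and 349 ± 77.9 CPM in cDNA. Direct RNA Undiff held 1 read of Hotairm1 in all, and the pooled ratio of Day4 to Undiff levels there was 415 with an exact 95% interval of 73.9 to 16421, for counting error only, while the Day4 replicates stood at 152 and 399 CPM. In cDNA the log2 fold change was 6.19 (SE 0.60). H19, an imprinted lncRNA, stood at 80.5 ± 7.89 and 2235 ± 1464 CPM in Direct RNA and at 48.0 ± 39.4 and 655 ± 442 CPM in cDNA, with log2 fold changes of 4.43 (SE 0.66) and 3.03 (SE 1.03). Both were DEGs in each kit. In cDNA H19 had a log2 fold change of 4.53 without Undiff replicate 1 and 2.29 without Day4 replicate 1, and its call was lost without Undiff replicate 2 (2.33) or Day4 replicate 2 (3.44). Between kits 7 of 16 other lncRNAs were higher in cDNA and 1 lower, with a median of 1.03, beside 24.7% and 26.6% of all genes. With library totals 3 were higher and 2 lower, with a median of 0.37.

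The genes whose levels followed those of Malat1 and Gas5 most closely were found by Pearson correlation of log2(CPM + 1) over the 8 libraries, among 3791 genes that averaged 50 reads or more. For Malat1 they were Mbip (r = 0.996), Sra1 (0.993) and Igsf3 (0.988). For Gas5 they included Sdhb (0.996) and Chchd7 (0.995). The points share the kits and the cultures, the difference between kits enters each coefficient, and no p-value is given. The likeness is of shape and not of size. Mbip ran from 25.8 to 33.1 CPM in Direct RNA and from 75.9 to 113 CPM in cDNA, a much smaller distance than that of Malat1.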

How the data were processed

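Gene counts of the 8 libraries were used. The authors deposited read counts for each symbol, as whole numbers without normalization. Reads had been aligned to mm10 with minimap2 and counted by htseq-count against the UCSC iGenomes annotation, leaving out secondary alignments. Base-calling used albacore or Guppy. Groups and replicate numbers came from the labels. Replicates were separate cultures. Those of a group differed by more than sampling noise (chi-square per degree of freedom 2.68 to 14.9), so each library counted. Both kits used RNA of the same cultures, and whether the numbers match between kits is not stated.

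Between states, DESeq2 1.42.0 (R 4.3.3) was fitted to all genes of each kit, with shrunken log2 fold changes and with Cook's cutoff and independent filtering off. The kit difference was fitted to 8 libraries, holding the state, and the interaction was unshrunken, with an adjusted p-value of 0.05 or less. P-values were Benjamini-Hochberg adjusted over all genes. Alternatives were edgeR 4.0.16 (quasi-likelihood, TMM), TMM factors, a minimum of 10 reads, default filtering, no shrinkage, a replicate block, leaving out each library and, chosen after seeing the data, library totals and the same alternatives for named genes of the other lists. CPM values with ± are mean and SD of the libraries of a group (n = 2), and for Malat1 between kits of the libraries of a kit (n = 4).

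The 10 genes and the lists were chosen with earlier results of these data known. All 10 are named. From each other list up to 3 genes were named that were DEGs in the same direction in both kits, by the largest mean log2 fold change in size, and 3 genes each by likeness to Malat1 and Gas5, of which 1 is not reported here. Positions and lengths are those of GENCODE vM21 (GRCm38, the same assembly as mm10), where 24054 of 24421 symbols matched.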

Additional observations from a re-analysis of the deposited data

How the results depend on the processing

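Leaving out each library in turn, where the lone library of a group is assumed to vary like the other groups, gave 0 to 1 of the 10 genes as DEGs in Direct RNA (0 without Undiff replicate 2), 1 to 2 in cDNA (1 without Undiff replicate 1 or without Undiff replicate 2), 6 to 7 between kits and 0 in the interaction. With edgeR 2 genes were DEGs in Direct RNA. With at least 10 reads in every library 3 were higher in cDNA, where Malat1, Neat1, Snhg12 and Dancr had too few reads to be tested and Snhg1 (0.85) missed the fold threshold. Without 1 library the sign of genes that were not called turned in several fits, as log2 values: between states in Direct RNA, Gas5 (-0.37 to 0.58), Snhg12 (-0.32 to 0.87), Dancr (-0.79 to 0.34) and Epb4.1l4aos (-0.082 to 0.081); in cDNA, Gas5 (-0.26 to 0.85), Snhg1 (-0.49 to 0.25) and Snhg8 (-1.11 to 0.23); and in the interaction, Gas5 (-0.53 to 0.78), Snhg3 (-0.26 to 0.80) and Dancr (-0.89 to 0.46). Snhg1 between states in cDNA was 0.048 with at least 10 reads and 0.20 with library totals. Between kits, library totals gave Neat1 -0.041, Snhg6 -0.20 and Epb4.1l4aos -0.29. The cause of each was not tested. With the replicate block the counts of genes called were 1, 3, 6 and 0, as without it. Snhg3 was then at -2.60 in Direct RNA and -2.41 in cDNA, no call of the 10 genes changed, and the interaction of Dancr turned from 0.00 to -0.21. Within a kit the pairing rests on the number alone (correlation of replicate differences over 1395 genes 0.21 in Direct RNA and 0.50 in cDNA). Between kits it was 0.12 in Undiff and -0.42 in Day4, and the numbers are not stated to match between kits. TMM factors, no shrinkage and default filtering changed no call of the 10 genes. Depth limits Malat1, Neat1 and Dancr in Direct RNA, where no library had more than 25 reads on any of them.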
